A study of Mus musculus with 20 samples.

Results

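The microRNAs miR-221 and miR-222 were followed through the conversion of mouse embryonic stem cells into epiblast stem cell-like cells. Their members were taken by name: mmu-miR-221-3p, mmu-miR-221-5p, mmu-miR-222-3p and mmu-miR-222-5p, the strands from the 3′ and 5′ sides of the hairpins. These were 4 of the 1063 miRNAs counted in both deposited tables, and all 4 were among the 813 that passed the filter on low counts. Small RNA was sequenced from a female line, PGK, and a male line, E14, at 5 stages with 2 libraries each, 20 libraries in all. Differentiating cells of either line had been plated on fibronectin in N2B27 with Activin A and Fgf2 and sampled on day 4, day 10, days 19 to 23 and days 27 to 30. Day 0 cells of the same lines had been kept in 2i medium. The libraries of a group came from different differentiation experiments, numbered 2 and 3 in the labels. With 1 line per sex, the line and the sex cannot be told apart.

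MicroRNAs are cut from hairpin transcripts, and the strand loaded into Argonaute pairs with messenger RNAs mainly through bases 2 to 8, the seed. miR-221 and miR-222 are neighbouring X-linked hairpins, usually made from a common primary transcript, whose 3p strands carry the same seed and are the usual guide strands. In mammals they are best known for repressing Cdkn1b, a cell cycle inhibitor gene, and Kit, a receptor tyrosine kinase gene, and they are abundant in fibroblasts, smooth muscle and endothelium.

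The mature strands are shown because the shared seed defines the pair, with the seed in capitals, 5′ to 3′ (RefSeq, GRCm38.p6; 3 of the 4 arms had an entry).
mmu-miR-221-3p: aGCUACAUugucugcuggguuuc
mmu-miR-222-3p: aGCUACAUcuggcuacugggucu
mmu-miR-221-5p: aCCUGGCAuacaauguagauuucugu
The first 8 bases of the 3p strands were identical, and 11 of their 23 positions matched in all. Among 1679 mature mouse names, the seed GCUACAU occurred in 1 other, miR-1928, which was not analysed here. The seed CCUGGCA of miR-221-5p occurred in no other name. The hairpins show where the strands lie, with the annotated mature strands in capitals.
Mir221: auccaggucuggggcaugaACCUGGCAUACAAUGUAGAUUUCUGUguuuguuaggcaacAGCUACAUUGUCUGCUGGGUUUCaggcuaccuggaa
Mir222: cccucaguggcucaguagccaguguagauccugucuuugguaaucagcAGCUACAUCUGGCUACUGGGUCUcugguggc
Both lie on the minus strand of chromosome X, Mir221 at chrX:19146294-19146388 and Mir222 at chrX:19146893-19146971 (GRCm38), 504 bases apart. No other annotated gene overlapped them. The nearest gene of any type was Gm14636, a processed transcript 10.01 kb away on the same strand, and the nearest protein-coding genes were Tex13c3, 332 kb away, and 4930578C19Rik, 685 kb away.

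The 20 libraries held between 7112398 and 18031067 counts. Levels are given in CPM, counts per 1000000 of the library total after scaling by TMM factors (trimmed mean of M-values). The stem cell markers matched the day labels, also in the day 0 libraries of experiment 3, whose cell type label is that of differentiating cells. The 14 arms of the miR-290 cluster, which mouse embryonic stem cells express, summed to at most 198954 CPM in any later library, against 262533 and 341290 CPM at day 0 in PGK and 245335 and 317879 CPM at day 0 in E14. The 10 arms of the primed-state miR-302 cluster (with its miR-367 hairpin) summed to at least 9297 CPM in every later library, against at most 585 CPM at day 0. All 10 were called higher at day 4 in both lines. Markers of other cell types also moved. The 7 fibroblast and mesenchyme markers (among them miR-21a-5p, miR-143-3p and miR-31-5p) summed to 11943 and 19663 CPM at day 4 in PGK, against 6449 and 11211 CPM at day 0. In E14 the same sum was 13284 and 13437 CPM at day 4, against 6290 and 9783 CPM at day 0. Individually, 2 of the 7 were called higher and 2 lower at day 4 in PGK, and 2 higher and 4 lower in E14. The 3 neural markers (miR-9-5p, miR-9-3p and miR-124-3p) summed to 635 to 1021 CPM at day 4 in PGK, against 164 to 256 CPM at day 0, and to 1268 to 1751 CPM in E14, against 212 to 314 CPM. The endothelial pair, miR-126-3p and miR-126-5p, summed to 637 to 956 CPM at day 4 in PGK, against 269 to 289 CPM at day 0, while its E14 sums overlapped. Of these, 2 of 3 neural markers were called higher at day 4 in each line, and both endothelial ones in PGK. The 3 muscle markers summed to 20.7 and 38.7 CPM at day 4 in PGK, against 1.26 and 7.29 CPM at day 0, and the 3 of endoderm to 563 and 972 CPM, against 1157 and 2164 CPM. In E14 muscle markers summed to 42.7 and 72.0 CPM at day 4, against 0.548 and 2.38 CPM at day 0, and endoderm markers to 313 and 788 CPM, against 1708 and 3623 CPM. The 5 blood markers summed to 416 and 601 CPM at day 4 in PGK, against 909 and 1267 CPM at day 0, and to 179.1 and 179.3 CPM in E14, against 519.7 and 1546 CPM. Of the 5, 2 were called lower at day 4 in PGK, and 1 was called higher and 1 lower in E14. Of the endoderm markers, miR-122-5p of liver was at 0 in 15 libraries and of the blood markers miR-223-3p and miR-451a were each at 0 in 3. Among the muscle markers, miR-206-3p was at 0 in 17 libraries. Over the 20 libraries miR-1a-3p averaged 0.440 CPM, against 18.3 CPM for miR-133a-3p. The muscle sums at day 4 were therefore almost all miR-133a-3p. Only 2 of the 3 muscle markers were tested, and 1 was called higher at day 4 in each line. Whether such cells contributed to the values below was not tested.

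All 4 arms were detected in every library, with counts of 48 to 6875. miR-221-3p was the most abundant, ranking 209 of 813 by its mean level of 256 CPM. The means were 71.7 CPM for miR-222-3p, 61.0 CPM for miR-222-5p and 39.1 CPM for miR-221-5p, at ranks 299, 313 and 355. Together the 4 arms made up 0.00857% to 0.0600% of the counts of a library.

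**Figure D1:**
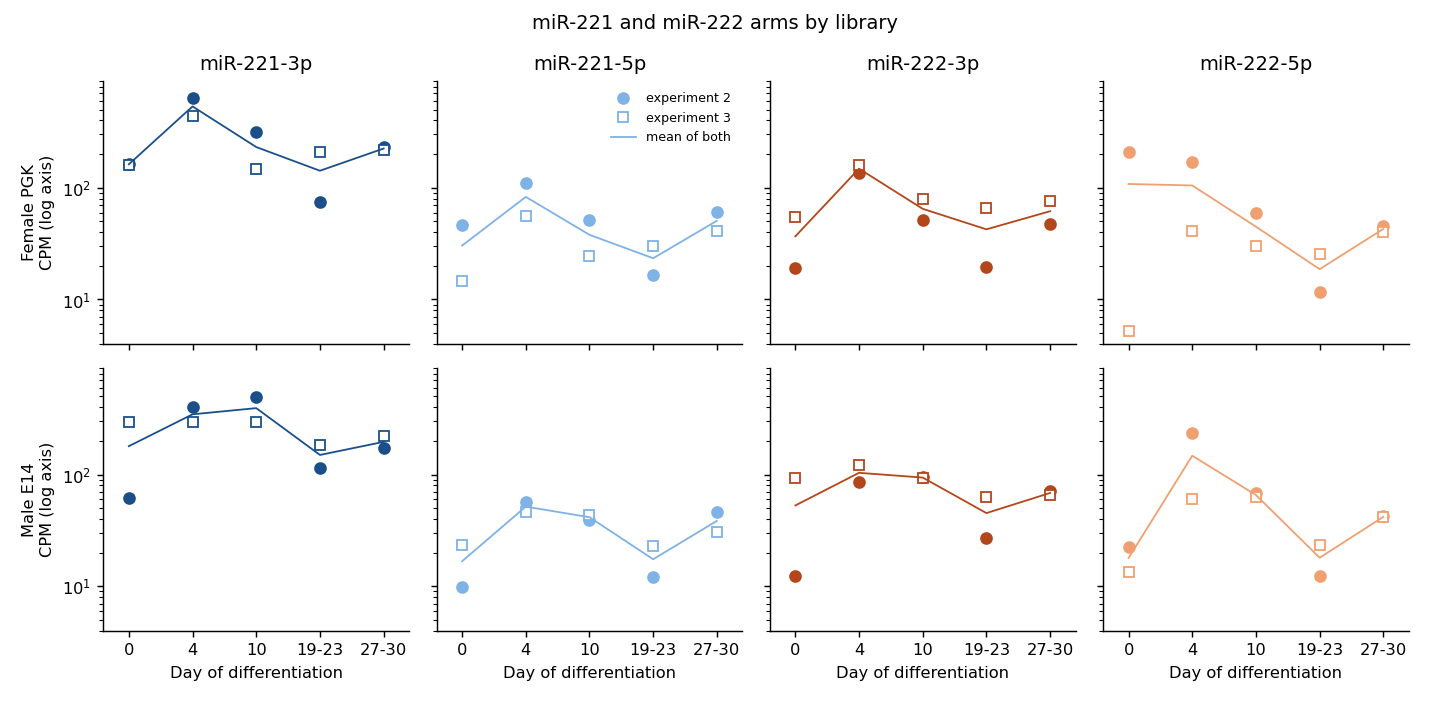
Level of each arm (CPM, logarithmic axis) in each library by day of differentiation, in female PGK (top) and male E14 (bottom); filled circles are experiment 2, open squares experiment 3 and lines the mean of both. The means of both 3p arms and of miR-221-5p are highest at day 4 in PGK, and the widest gap between the experiments is that of miR-222-5p in PGK at day 0.

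In female PGK cells the 3p strands were at their highest on day 4. miR-221-3p measured 165 and 160 CPM at day 0 in experiments 2 and 3, 632 and 435 CPM at day 4, 314 and 148 CPM at day 10, 74.7 and 209 CPM at days 19 to 23, and 230 and 218 CPM at days 27 to 30. Both day 4 libraries lay above every other PGK library, and the share of all miRNAs with such an order was not counted. The means were 534 ± 140 CPM at day 4 and 162 ± 3.53 CPM at day 0 (SD, n = 2 each). miR-221-3p rose at day 4 by 1.72 ± 0.64 on the log2 scale (SE; adjusted p = 0.0454, edgeR quasi-likelihood test), 3.29-fold. In bulk libraries, a change in the share of cells of a type and a change of RNA per cell cannot be told apart. At days 27 to 30 the change from day 0 was not called (log2 change 0.47 ± 0.62, adjusted p = 0.569).

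miR-222-3p, with the same seed, measured 19.1 and 54.4 CPM at day 0, 137 and 159 CPM at day 4, 51.0 and 78.5 CPM at day 10, 19.5 and 65.4 CPM at days 19 to 23, and 47.1 and 76.2 CPM at days 27 to 30. Its day 4 libraries again lay above all other PGK libraries after TMM scaling. By library totals alone, experiment 2 at day 4 had 75.3 CPM, below every later library of experiment 3 (78.5 to 91.5 CPM). The log2 change at day 4 was 2.01 ± 0.79, just short of the threshold (edgeR adjusted p = 0.0546). With the experiment as a replicate block, which the labels' experiment name allows, it was 2.20 with an adjusted p of 0.00880, and DESeq2 also called it (adjusted p = 0.0362). Over the 8 other settings its adjusted p ran between 0.00880 and 0.116. It was also called without the PGK library of experiment 3 at days 19 to 23 or without either E14 day 0 library (adjusted p 0.0261 to 0.0483). Without the PGK day 0 library of experiment 2 the change was 1.28 (adjusted p = 0.325) and without that of experiment 3 it was 2.57 (adjusted p = 0.0839), the lowest and the highest of the 20 fits.

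The 5p strand of miR-221, usually the passenger, measured 46.1 and 14.6 CPM at day 0, 109 and 56.1 CPM at day 4, 51.3 and 24.5 CPM at day 10, 16.5 and 30.3 CPM at days 19 to 23, and 60.5 and 40.6 CPM at days 27 to 30. Its log2 change at day 4 was 1.45 ± 0.61 (edgeR adjusted p = 0.0716), and within experiment 2 as within experiment 3 day 4 was the higher. It was called with the block by line (adjusted p = 0.0445) and without the day 0 library of experiment 2 (log2 change 2.31, adjusted p = 0.0289), and its change was 0.41 without the day 0 library of experiment 3 (adjusted p = 0.670). The 5p strand of miR-222 measured 211 and 5.22 CPM at day 0, 168 and 41.0 CPM at day 4, 59.3 and 30.3 CPM at day 10, 11.6 and 25.7 CPM at days 19 to 23, and 45.7 and 39.8 CPM at days 27 to 30. The day 0 libraries therefore stood on opposite sides of all the others. Its log2 change at day 4 was -0.04 ± 1.04 (edgeR adjusted p = 0.984). Without the day 0 library of experiment 2 it was 4.10, the highest of the 20 fits that each left out 1 library. It was 0.64 without the day 4 library of experiment 3 and -1.66 without that of experiment 2, so its direction was not settled. Leaving out each of the other libraries gave adjusted p of up to 0.994.

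In male E14 cells both 5p strands were called higher on day 4, and the 3p strands were not called. miR-221-5p measured 9.87 and 23.6 CPM at day 0, 57.3 and 45.9 CPM at day 4, 39.4 and 43.6 CPM at day 10, 12.0 and 22.9 CPM at days 19 to 23, and 46.4 and 30.6 CPM at days 27 to 30. The day 4, day 10 and last libraries all lay above both day 0 libraries. It rose at day 4 by 1.62 ± 0.62 (log2; edgeR adjusted p = 0.0451), 3.08-fold. miR-222-5p measured 22.5 and 13.3 CPM at day 0, 234 and 60.5 CPM at day 4, 67.9 and 63.2 CPM at day 10, 12.4 and 23.6 CPM at days 19 to 23, and 42.3 and 41.3 CPM at days 27 to 30. Here too the stages other than days 19 to 23 lay above day 0. The share of all miRNAs with such orders in E14 was not counted. The rise at day 4 was 3.04 ± 1.12 (log2; edgeR adjusted p = 0.0402), 8.23-fold, with a 3.87-fold gap between the day 4 libraries.

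miR-221-3p in E14 measured 61.2 and 297 CPM at day 0, 398 and 293.6 CPM at day 4, 489 and 296 CPM at day 10, 115 and 185 CPM at days 19 to 23, and 172 and 220 CPM at days 27 to 30. In experiment 3 the levels of day 0, day 4 and day 10 were nearly equal, whereas in experiment 2 day 0 was the lowest library. The log2 change at day 4 was 0.95 ± 0.63 (edgeR adjusted p = 0.239). Without the day 0 library of experiment 3 it was 2.23 (adjusted p = 0.0202), and without that of experiment 2 it was -0.12 (adjusted p = 0.918). miR-222-3p measured 12.2 and 93.5 CPM at day 0, 86.2 and 121 CPM at day 4, 94.3 and 93.5 CPM at day 10, 27.05 and 63.3 CPM at days 19 to 23, and 70.7 and 66.0 CPM at days 27 to 30. Its log2 change at day 4 was 0.97 ± 0.76 (edgeR adjusted p = 0.325), with 2.83 and an adjusted p of 0.0214 without the day 0 library of experiment 3, and -0.17 and 0.894 without that of experiment 2.

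**Figure D2:**
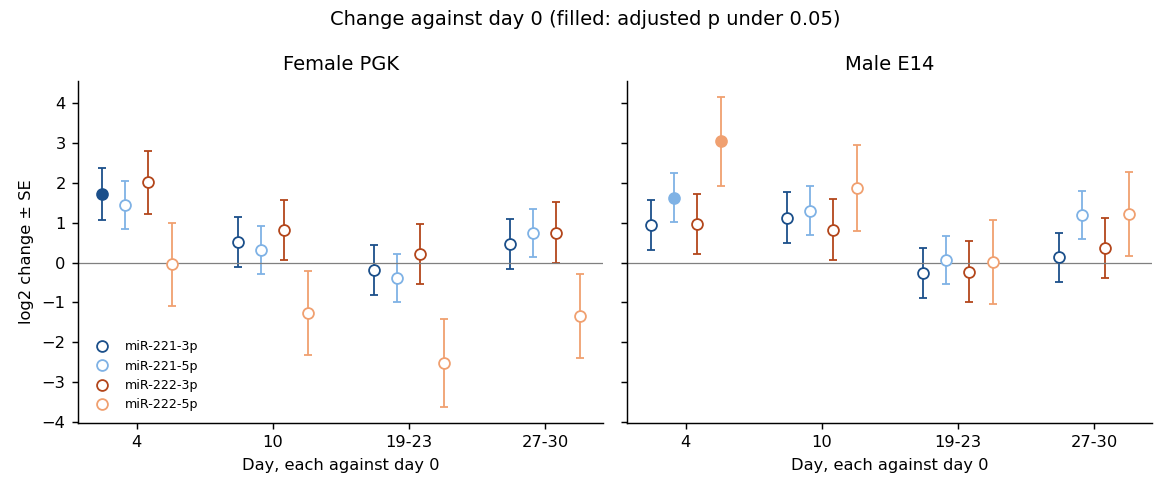
Log2 change of each arm against day 0 (vertical axis, with the SE of the edgeR fit) at each later stage, in female PGK (left) and male E14 (right); filled points had an adjusted p under 0.05. The 3 filled points are all at day 4, miR-221-3p in PGK and the 5p arms in E14.

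Across the series, 1 of 16 arm-by-stage changes was called in PGK and 2 of 16 in E14, all increases at day 4. At day 4 1 of 4 arms was called in PGK, where 39.1% of the 813 miRNAs tested were called and 24.5% were called higher. In E14 2 of 4 arms were called, where 43.4% of all were called and 25.1% called higher. At the other stages no arm was called by this fit in either line, with adjusted p between 0.0789 and 0.840 in PGK and between 0.113 and 0.9998 in E14. Of all miRNAs in PGK 40.1% were called on day 10, 40.5% on days 19 to 23 and 43.5% on days 27 to 30. In E14 the shares were 33.7% (day 10), 34.3% (days 19 to 23) and 40.7% (days 27 to 30). Unadjusted, 4 of the 16 changes in PGK and 3 of 16 in E14 had p under 0.05, and DESeq2 called 3 and 1. The third DESeq2 call in PGK was a lower level of miR-222-5p, with 11.6 and 25.7 CPM at days 19 to 23, against 211 and 5.22 CPM at day 0. DESeq2 gave a log2 change of -2.65 (adjusted p = 0.0193), and edgeR -2.53 ± 1.10 (adjusted p = 0.0789). By edgeR it was 1.88 without the day 0 library of experiment 2 (adjusted p = 0.122) and -3.60 without that of experiment 3 (adjusted p = 0.00346), so the direction rests on the library of experiment 2. At days 27 to 30 miR-222-5p in PGK had a log2 change of -1.34, with 3.04 without the day 0 library of experiment 2 and -2.43 without that of experiment 3, both called (edgeR adjusted p = 0.0241 and 0.0279). In E14 the change of miR-222-3p at days 27 to 30 was 0.37, with 2.38 and a call without the day 0 library of experiment 3 (edgeR adjusted p = 0.0409). Scaled by library totals, miR-221-5p in E14 was called at days 27 to 30 (log2 change 1.83, edgeR adjusted p = 0.0262), against 1.20 and 0.128 with TMM. Over the 8 other settings that adjusted p ran up to 0.144. In E14 miR-222-5p at day 10 was called with the line fitted alone (edgeR adjusted p = 0.0452, up to 0.195 over the 8 other settings) and without the PGK day 0 library of experiment 2 (adjusted p = 0.0484).

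The calls at day 4 sat close to the threshold. miR-221-3p in PGK was called under 3 of 8 other settings and miR-221-5p in E14 under 2 of 8, against 6 of 8 for miR-222-5p in E14. When 1 of the 20 libraries was left out in turn, miR-221-3p in PGK was called in 3 of 20 fits, those without the PGK library of experiment 3 at days 19 to 23 or without either E14 day 0 library. In the same fits miR-221-5p in E14 was called in 1 of 20, that without the PGK day 4 library of experiment 3, and miR-222-5p in E14 in 7 of 20. The 7 left out either PGK day 0 library, the PGK library of experiment 3 at day 4 or at days 19 to 23, the E14 library of experiment 3 at day 4, or either E14 library at days 27 to 30. The direction held in all of these fits, with log2 changes of 1.25 to 1.96 for miR-221-3p in PGK, 0.80 to 2.12 for miR-221-5p in E14 and 1.57 to 3.37 for miR-222-5p in E14. The lowest came without the PGK day 4 library of experiment 2, the E14 day 0 library of experiment 2 and the E14 day 4 library of experiment 2. The median of all miRNAs at day 4 shifted by -0.31 in PGK and -0.01 in E14 (log2) with library totals in place of TMM, and by -0.17 and -0.24 with RLE scaling. With TMM kept, it shifted by -0.35 and -0.14 with a mean of at least 10 CPM as filter. Without a filter it shifted by -0.19 in PGK and -0.19 in E14.

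After day 4 the arms did not pass the test between neighbouring stages. The F test over all 5 stages called none of the 4 arms in PGK (adjusted p 0.0847 to 0.254) or in E14 (0.0797 to 0.548), where 44.2% and 49.6% of all miRNAs were called. Of these 8 tests 2 had an unadjusted p under 0.05, and DESeq2 called 1, miR-222-5p in E14 (adjusted p = 0.0387, between 0.0166 and 0.137 over the 8 other settings). With the experiment as a replicate block, miR-222-3p in PGK was called (adjusted p = 0.0247, between 0.0247 and 0.465 over the 8 other settings). Leaving out either PGK day 0 library called miR-222-5p in both lines (adjusted p 0.0108 to 0.0222). miR-221-3p was called in PGK without the library of experiment 3 at days 19 to 23 (adjusted p = 0.0460) and in E14 without the day 0 library of experiment 3 (adjusted p = 0.0254).

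From stage to stage, 0 of 12 steps were called by edgeR in either line and 0 by DESeq2, with 0 unadjusted p under 0.05 in PGK and 1 in E14. The 1 in E14 was miR-221-3p, with 115 and 185 CPM at days 19 to 23, against 489 and 296 CPM at day 10 (edgeR log2 change -1.39 ± 0.64, adjusted p = 0.388). In PGK all 4 arms had lower means at day 10 than at day 4 (log2 changes of -1.22 to -1.13), where 6.52% of all miRNAs were called. In E14 8.12% were called at that step. For each of the 4 arms in E14 both libraries of days 19 to 23 lay below both of day 10, with log2 changes of -1.86 to -1.05. By library totals alone the libraries overlapped for miR-222-3p (36.4 and 90.4 CPM, against 73.5 and 113 CPM at day 10) and miR-221-5p. How many of all miRNAs were ordered in this way was not counted. From day 10 to days 19 to 23, 0.246% of all miRNAs were called in E14 and 0.369% in PGK, and library totals in place of TMM shifted the median of all by 0.49 in E14. All 4 arms had higher means at days 27 to 30 than at days 19 to 23, with log2 changes of 0.54 to 1.19 in PGK and 0.39 to 1.21 in E14. For 3 of 4 arms in each line both later libraries lay above both earlier ones, the exceptions being miR-222-3p in PGK and miR-221-3p in E14. By library totals alone miR-221-3p in PGK and miR-222-3p in E14 overlapped as well. The share of all miRNAs with this order was not counted. None of the 4 arms was called (edgeR adjusted p = 1 for each), and 0% of all miRNAs were called at this step in PGK and 0% in E14.

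Between the lines no arm differed at any stage by edgeR (0 of 20 differences, 1 with an unadjusted p under 0.05, 0 by DESeq2). Of all miRNAs tested, 8.73% were called between PGK and E14 on day 0 and 5.04% on day 4, and 0% on day 10 or later. At day 4 miR-221-3p averaged 534 ± 140 CPM in PGK and 346 ± 73.7 CPM in E14, and miR-222-3p averaged 148 ± 15.9 CPM in PGK and 104 ± 24.6 CPM in E14 (SD, n = 2 each). Both 3p arms had their PGK libraries above their E14 libraries at that stage. At day 10 miR-222-3p had the opposite order, with 51.0 and 78.5 CPM in PGK, against 94.3 and 93.5 CPM in E14. By library totals alone the PGK and E14 libraries of miR-222-3p overlapped at day 4 and at day 10. At day 10 miR-222-5p likewise had its PGK libraries below its E14 libraries, and the differences of all 4 arms ran from -0.76 to -0.13 (log2; edgeR adjusted p 0.684 to 0.970). The share of all miRNAs whose libraries did not overlap between the lines was not counted at either stage. At day 4 the female minus male log2 differences of the 3p arms were 0.63 ± 0.63 and 0.51 ± 0.76 (edgeR adjusted p = 0.623 and 0.761). Closest to the threshold was miR-222-5p at day 0, with 211 and 5.22 CPM in PGK, against 22.5 and 13.3 CPM in E14 (edgeR log2 difference 2.59 ± 1.10, adjusted p = 0.200). Without the PGK library of experiment 2 the difference was -1.96, and without that of experiment 3 it was 3.40 and called (edgeR adjusted p = 0.0121).

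The change from day 0 was not called different between the lines for any arm at any stage (0 of 16 by edgeR, 0 with an unadjusted p under 0.05, 0 by DESeq2). Of all miRNAs tested, 0% were called in this comparison up to days 19 to 23 and 0.369% on days 27 to 30. So the calls of different arms in PGK and E14 at day 4 were not shown to be a difference between the lines. For miR-221-3p the female change minus the male change at day 4 was 0.77 ± 0.88 (log2; edgeR adjusted p = 0.732). For miR-222-5p it was -3.09 ± 1.51 (adjusted p = 0.353), with 1.34 without the PGK day 0 library of experiment 2.

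The pair was set beside the other X-linked miRNAs, which were found by name in the annotation (658 of the 813 had a position). Of the 94 others tested, 44 were called between the lines at day 0, 38 of them higher in PGK, with a median log2 difference of 1.58. None of the 4 arms of the pair was called, and the libraries of each overlapped between the lines. miR-221-3p had 165 and 160 CPM in PGK and 61.2 and 297 CPM in E14. The log2 differences were -0.15 for miR-221-3p, -0.53 for miR-222-3p, 0.86 for miR-221-5p and 2.59 for miR-222-5p. That of miR-222-5p was -1.96 without the PGK library of experiment 2. At day 4 14 of the 94 were called higher and 25 lower in PGK (median log2 change -1.05), and 29 higher and 6 lower in E14 (median 0.54). The nearest X-linked miRNAs that passed the filter lay 11.3 Mb (miR-1198) and 11.9 Mb away (miR-188, miR-362, miR-501 and miR-532).

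The strands of the 2 hairpins were used in different proportions. For miR-221 the 5p count was 0.0795 to 0.280 times the 3p count in the 20 libraries, with a median of 0.152, so the 3p strand dominated in every library. For miR-222 the ratio ran from 0.0960 to 11.1, with a median of 0.598. The lowest and the highest of these 20 ratios were both PGK at day 0, with 11.1 in experiment 2 and 0.0960 in experiment 3. In raw counts these were 2179 of miR-222-5p and 197 of miR-222-3p in experiment 2, and 48 and 500 in experiment 3.

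The miR-222 ratio was higher in experiment 2 than in experiment 3 in 9 of the 10 groups. At day 4 it was 1.23 and 0.258 in PGK and 2.72 and 0.50 in E14, in experiments 2 and 3, and in E14 at day 0 it was 1.84 and 0.143. The gap was smaller at the end, with 0.971 and 0.523 in PGK and 0.598 and 0.625 in E14 at days 27 to 30, the last being the 1 group in the other order. In experiment 3 the ratio was larger at day 10 than at day 4 and at day 4 than at day 0 in both lines, whereas in experiment 2 the PGK ratio was largest at day 0. The stages were thus ordered differently in the experiments. For miR-221 experiment 2 had the higher ratio in 6 of 10 groups.

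**Figure D3:**
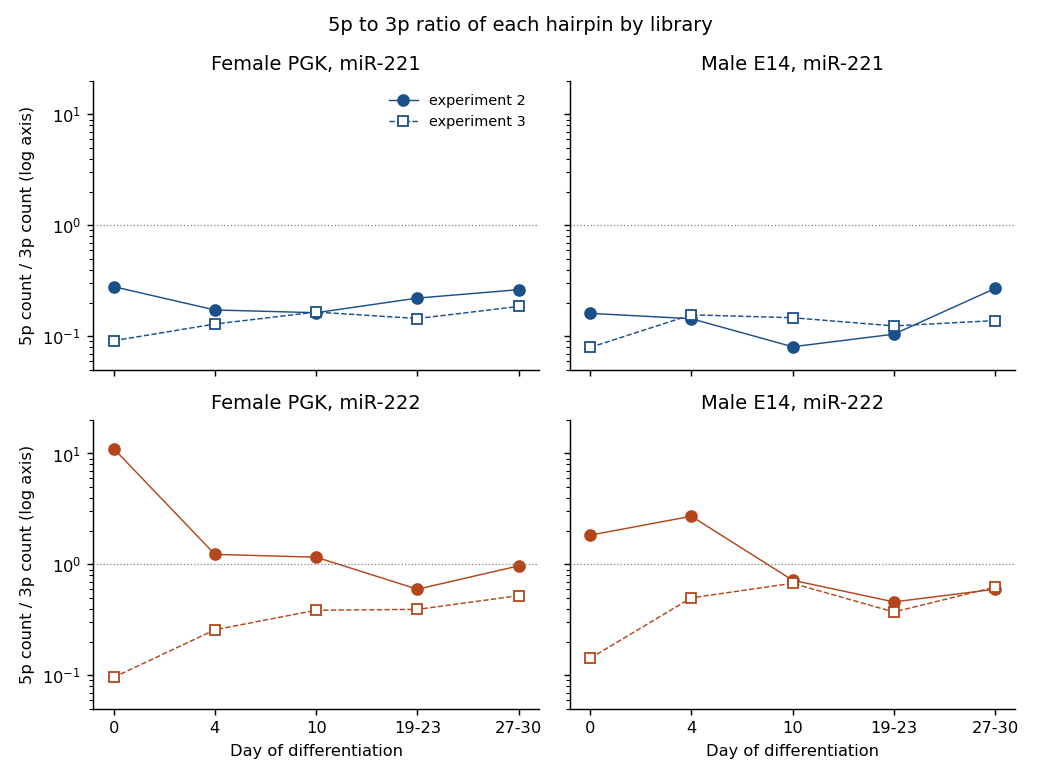
Ratio of the 5p to the 3p count (logarithmic axis; dotted line at equal counts) of miR-221 (top) and miR-222 (bottom) in each library by day, in female PGK (left) and male E14 (right); filled circles are experiment 2 and open squares experiment 3. The miR-221 ratio is at most 0.280 throughout, while the miR-222 ratio is higher in experiment 2 in 9 of the 10 groups, with the widest gap in PGK at day 0.

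How unusual the gap between the experiments was could be read against other hairpins. In 156 hairpins both arms averaged at least 10 CPM, and the mean absolute log2 gap of the 5p to 3p ratio between the experiments had a median of 0.509. For miR-222 it was 1.88, the largest of the 156, and for miR-221 it was 0.639, reached or exceeded by 33.3% of hairpins. A ratio higher in experiment 2 in at least 9 groups occurred in 11 hairpins (7.05%). The same order of the experiments in at least 9 groups, whichever was higher, occurred in 27 hairpins (17.3%). This comparison was chosen after the miR-222 values had been seen. The sources used here do not say whether the experiments differed in library preparation, and its part in the ratio was not tested.

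**Figure D4:**
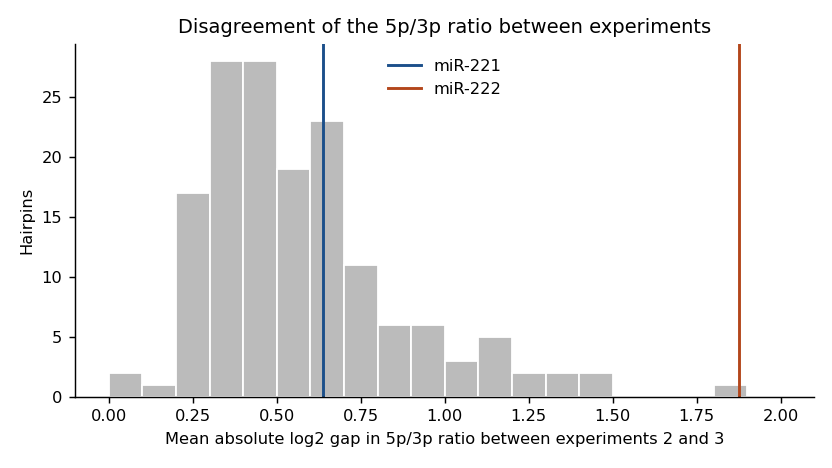
Number of hairpins (vertical axis) by the mean over the 10 groups of the absolute log2 gap in the 5p to 3p ratio between experiments 2 and 3 (horizontal axis), for 156 hairpins; the vertical lines mark miR-221 and miR-222. miR-221 lies near the bulk at 0.639, and miR-222 is the farthest right at 1.88.

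The widest gaps in level between the experiments were also at day 0. Between the experiments, with 0.5 CPM added to each value, miR-222-5p differed 36.9-fold in PGK at day 0, a gap that 2 of the 332 miRNAs averaging at least 50 CPM (0.602%) reached. In E14 at day 0 miR-222-3p differed 7.38-fold and miR-221-3p 4.83-fold, gaps that 4.22% and 7.53% of those miRNAs reached. By contrast miR-221-3p in PGK differed 1.03-fold at day 0. Summed over the 4 arms, PGK had 1047 and 691 CPM at day 4, against 440 and 234 CPM at day 0, in experiments 2 and 3. E14 had 776 and 521 CPM at day 4, against 106 and 428 CPM at day 0, so every day 4 sum lay above every day 0 sum.

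The members were also compared with one another across the 10 libraries of each line, which share their scaling. The log2 levels of miR-221-3p and miR-222-3p had a Pearson r of 0.777 in PGK and 0.916 in E14. The arms of the miR-221 hairpin had 0.851 and 0.823. The arms of the miR-222 hairpin had 0.0955 in PGK and 0.491 in E14, whereas miR-222-5p and miR-221-5p had 0.847 and 0.801. The ratio of miR-221-3p to miR-222-3p stayed between 1.88 and 8.63, with a median of 3.27.

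Other miRNAs were ranked by the lower of the PGK and E14 correlations with a 3p strand, among 329 that averaged at least 50 CPM, over 10 libraries per line. Nearest to miR-221-3p were miR-154-5p, at 0.704 in PGK and 0.757 in E14, then miR-421-3p (0.838 and 0.674), miR-434-3p (0.702 and 0.670), miR-329-5p (0.843 and 0.630) and miR-127-5p (0.724 and 0.609). Nearest to miR-222-3p were miR-668-3p (0.681 and 0.716), miR-374c-3p (0.680 and 0.684), miR-374b-5p (0.679 and 0.684), miR-421-3p (0.666 and 0.708) and miR-154-5p (0.724 and 0.643). miR-421-3p and miR-154-5p were near to both 3p strands. miR-154-5p, miR-434-3p, miR-329-5p, miR-127-5p and miR-668-3p are members of the imprinted Dlk1-Dio3 cluster, whose share of the 329 candidates was not counted. These correlations describe these libraries and carry no test.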

How the data were processed

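The authors' deposited raw tables, 1 per line, give read counts of each miRNA in every library. Per the labels' protocols the libraries followed Illumina's small RNA method after DNase treatment. CASAVA 1.8.2 and DESeq2, with GRCm38 and mm10 as builds, are listed in the submitters' processing notes. For the aligner, the miRNA set and reads shared by several hairpins, the method was not given in the sources used here. Further tables, normalized by the authors, were not used. Samples were grouped by line and day, and the experiment name gave the replicate number. Day 0 samples of experiment 3 are labelled as differentiating by cell type but as day 0 by title and day, which was used. Labels do not say whether libraries of a group came from separate thaws, so p-values measure the spread between these samples. The members and lists were chosen with earlier results of these data known.

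Counts of the 1063 shared miRNAs in 20 libraries were fitted with edgeR 4.0.16 (R 4.3.3): 1 mean per group, TMM factors (0.551 to 1.43), filterByExpr, quasi-likelihood F tests, Benjamini-Hochberg adjustment over 813 miRNAs within each contrast and a threshold of 0.05. Tests were checked on simulated counts. SE is the log2 change over the root of F. A count of 0 allows up to 3 counts, 0.166 to 0.422 CPM, for counting error only. Same-numbered libraries of both lines deviated together at the same stage (r 0.118 to 0.600 over 5 stages, median 0.402). Across different stages the median r was only 0.0904 within a line and 0.109 between the lines. The experiment number was tried as a block, which takes its effect as equal at all stages. Alternatives were RLE scaling, library totals, a mean of at least 10 CPM, no filter, DESeq2 1.42.0, each line alone, and leaving out each library. All 4 arms are named, the nearest 5 miRNAs per 3p arm by correlation, the most abundant markers, and the nearest X-linked miRNAs. Marker names follow the older names of the tables (miR-126, miR-142, miR-290). Sequences and positions come from RefSeq and GENCODE (GRCm38).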

Additional observations from a re-analysis of the deposited data

How the results depend on the processing

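The number of arm-by-stage changes called in PGK, 1 as reported, was 0 with RLE scaling, library totals, a mean of at least 10 CPM, no filter or each line alone, 2 with the replicate block, 3 with the block by line and 3 with DESeq2. Leaving out 1 library gave 0 to 4, with 4 without the PGK day 0 library of experiment 2. In E14 the 2 calls became 0 with RLE scaling and with a mean of at least 10 CPM, 1 with no filter and 1 with DESeq2, and stayed at 2 under the replicate block. It was also 2 with library totals and with the line alone, but there miR-221-5p at day 4 was lost (adjusted p 0.0509 and 0.0780), and miR-221-5p at days 27 to 30 was gained with library totals and miR-222-5p at day 10 with the line alone. Leaving out 1 library gave 0 to 5, with 5 without the E14 day 0 library of experiment 3. The test over all stages called 1 arm instead of 0 with DESeq2, with each line alone, with the replicate block and with the block by line, and 0 to 2 without 1 library. Differences in level between the lines gave 0 to 1 calls without 1 library, with 1 without the PGK day 0 library of experiment 3. Steps and differences of change between the lines had 0 calls under every alternative run.

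Signs turned only for log2 changes that the edgeR fit of all 20 libraries had not called. DESeq2 had called that of miR-222-5p at days 19 to 23 in PGK. miR-222-5p at day 4 in PGK, -0.04 as reported, was 0.12 with the replicate block and 0.26 with the block by line, and -1.66 to 4.10 without 1 library. Without 1 library the change of miR-222-5p at days 27 to 30 in PGK was -2.43 to 3.04, at days 19 to 23 -3.60 to 1.88, its female minus male difference at day 0 -1.96 to 3.40, and its female minus male change at day 4 -4.44 to 1.34. In E14 miR-221-3p gave -0.12 to 2.23 at day 4 and -0.64 to 1.57 at days 27 to 30, and miR-222-3p gave -0.17 to 2.83 and -0.49 to 2.38. The ends of these ranges come from leaving out a day 0 library for most, and the cause was not tested. Every arm was detected in every library, the lowest count being 48, and a part of depth in these ranges was not tested.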
